A study of Mus musculus with 4 samples.

Results

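Antioxidant and glutathione genes were followed in thymospheres, free-floating bodies that dissociated thymus cells form in dishes to which they cannot attach. The genes were chosen by name, with earlier results of these data known: the cytosolic, kappa and microsomal glutathione transferases, the glutathione peroxidases, peroxiredoxins, superoxide dismutases, thioredoxin reductases and selenium-binding proteins, together with Cat, Nqo1, Hmox1, Gclc, Gclm, Gsr, Gss, Srxn1, Txn1, Nfe2l2, Keap1, Mt1 and Mt2. They came to 58 genes of the 21154 named on the array, read by 79 probes, and 17 of them had more than 1 probe. Of 61 annotated genes that fit the names, 3 had no probe matched here (Gsta1, Gstm2-ps1 and Selenbp2).

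The adult group was grown from thymi of C57Bl6/N mice aged 5 to 6 weeks and the embryonic group from thymi of C57Bl6/N embryos at embryonic day 14.5, with 2 samples in each group and 1 one-colour array per sample. The spheres of both groups were grown for 7 days, with fresh medium on day 5, in a medium with EGF, bFGF, insulin, hydrocortisone and B27, a serum-free supplement whose usual recipe includes antioxidants. RNA came from whole spheres, and the comparison addresses how the expression of adult thymospheres differs from that of embryonic ones. The labels give no genetic change and no number of animals per sample, and they name biological and technical replicates without saying which these are, so the p-values rest on the scatter among these 4 samples, and that scatter may be technical.

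Cells meet superoxide and hydrogen peroxide with a chain of enzymes. Superoxide dismutases turn superoxide into hydrogen peroxide, and catalase, glutathione peroxidases and peroxiredoxins break the peroxide down, drawing on glutathione and thioredoxin that their reductases restore with NADPH. Glutathione transferases join glutathione to reactive compounds. Many of these genes are targets of the transcription factor NRF2, which KEAP1 holds at a low level until oxidants or electrophiles modify it, and metallothioneins bind zinc and copper under the metal-responsive factor MTF1. In the mouse thymus, peroxide and catalase in stromal cells have been linked to the shrinking of the organ with age.

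The 250 bases before the transcription start are shown for the 3 genes that were called lower in adult spheres under every processing that kept all arrays (Selenbp1, Nqo1 and Gstm1), for a called gene of the same Gstm block that holds both motifs searched (Gstm5), and for both metallothionein genes. The sequences are RefSeq's, of build GRCm38.p6, written 5′ to 3′ on the gene's own strand, with matches in capitals. The motifs were the antioxidant response element core (TGACNNNGC), to which NRF2 and small MAF proteins bind, and the metal response element core (TGCGCNC or TGCACNC), to which MTF1 binds, each on both strands.
Selenbp1 (chr3:94932833-94933082, plus strand): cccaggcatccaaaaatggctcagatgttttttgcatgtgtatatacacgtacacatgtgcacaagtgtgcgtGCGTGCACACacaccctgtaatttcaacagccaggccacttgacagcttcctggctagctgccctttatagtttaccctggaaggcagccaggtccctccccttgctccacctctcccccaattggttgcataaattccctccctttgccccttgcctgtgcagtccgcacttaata
Nqo1 (chr8:107403206-107403455, minus strand): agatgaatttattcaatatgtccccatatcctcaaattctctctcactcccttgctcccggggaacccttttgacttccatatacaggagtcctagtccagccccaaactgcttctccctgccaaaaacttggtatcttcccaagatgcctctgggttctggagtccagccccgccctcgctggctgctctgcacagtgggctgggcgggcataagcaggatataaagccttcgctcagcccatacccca
Gstm1 (chr3:108017974-108018223, minus strand): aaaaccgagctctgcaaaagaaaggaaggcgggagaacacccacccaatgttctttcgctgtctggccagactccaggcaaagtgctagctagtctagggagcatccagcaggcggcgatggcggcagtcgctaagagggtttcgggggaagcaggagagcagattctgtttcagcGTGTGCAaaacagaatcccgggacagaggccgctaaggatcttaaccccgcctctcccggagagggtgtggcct
Gstm5 (chr3:107895604-107895853, plus strand): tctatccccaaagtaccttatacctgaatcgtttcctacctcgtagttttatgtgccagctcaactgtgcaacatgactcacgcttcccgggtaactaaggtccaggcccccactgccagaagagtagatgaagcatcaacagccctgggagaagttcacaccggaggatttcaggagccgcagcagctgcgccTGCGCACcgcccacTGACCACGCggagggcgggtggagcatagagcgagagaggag
Mt1 (chr8:94178839-94179088, plus strand): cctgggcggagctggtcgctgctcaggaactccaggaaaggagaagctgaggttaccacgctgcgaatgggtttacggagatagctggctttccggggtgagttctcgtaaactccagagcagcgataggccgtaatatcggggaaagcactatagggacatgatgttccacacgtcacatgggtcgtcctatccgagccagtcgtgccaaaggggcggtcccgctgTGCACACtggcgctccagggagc
Mt2 (chr8:94172368-94172617, plus strand): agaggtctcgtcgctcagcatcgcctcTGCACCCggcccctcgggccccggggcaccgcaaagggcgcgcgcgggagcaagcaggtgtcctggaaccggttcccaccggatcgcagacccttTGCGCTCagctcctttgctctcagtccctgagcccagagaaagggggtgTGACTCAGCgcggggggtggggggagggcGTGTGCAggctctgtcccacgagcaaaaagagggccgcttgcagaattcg
Selenbp1 holds 2 overlapping metal element matches, one on each strand, and Nqo1 holds no match of either kind in this window. Gstm1, shown by the first of its 2 windows, holds 1 metal element match 74 to 68 bases before the start. Gstm5 holds 1 metal element match at 56 to 50 bases and 1 antioxidant element match at 42 to 34 bases before the start. Within the 250 bases shown, Mt1 holds 1 metal element match and Mt2 holds 3, beside 1 antioxidant element match 79 to 71 bases before the start. All these counts depend on the annotated start. Elements outside the windows, on either side, were not counted, so a low count does not mean that a gene lacks the element.

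A promoter window was found for 51 of the 58 genes. An antioxidant element match lay in the window of 10 of the 51 (19.6%), against 11.5% of 27025 genes of the annotation. A metal element match lay in 16 of the 51 (31.4%), against 23.8% of those genes. Among the 11 genes with a window that were called lower in adult spheres, 2 held the antioxidant element core (Gstm5 and Nfe2l2) and 5 the metal element core (Gstm1, Gstm4, Gstm5, Selenbp1 and Txnrd2). These matches describe letters in a short window and show no binding.

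The arrays differed in how much lay above background before any gene was compared. Spots well above background made up 71.6% and 49.6% of 59305 spots on the adult arrays, against 48.3% and 35.7% on the embryonic arrays. Of the 79 probes for the antioxidant and glutathione genes, 75 and 64 passed that level in adult spheres and 69 and 66 in embryonic spheres, and 6 (7.59%) passed it on adult array 1 alone, as did 17.8% of all probes. Spots marked as outliers numbered 185 and 2756 in the adult group, against 120 and 95 in the embryonic group, so that adult array 2 stood apart. Of the 52 genes tested, 45 had a higher value on adult array 1 than on adult array 2, and 37 a higher value on embryonic array 1 than on embryonic array 2. Precision is limited by there being only 4 arrays.

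The labels call the spheres colonies of thymic epithelial stem cells, and markers of several cell types were measured in them. The summed signal of 11 epithelial markers, in units of each array's 75th percentile, was 52.8 and 34.7 in adult spheres, against 150 and 260 in embryonic spheres. Krt8 and Krt5 held most of it, 48.0% and 43.3% for Krt8 with 26.9% and 21.4% for Krt5 in adult, and 38.7% and 31.5% for Krt8 with 45.2% and 54.8% for Krt5 in embryonic spheres. Of the 10 epithelial markers with a value on every array, 7 were lower in adult spheres without overlap (61.5% of 13405 tested genes were). Higher without overlap were 2 (22.6% of those genes were), Krt14 (log2 signals 1.70 and 0.38 in adult, -0.57 and -1.08 in embryonic spheres) and Aire. Foxn1 and Pax9, which define that epithelium, were well above background on both embryonic arrays and on adult array 1 only, and Psmb11, Aire and Dll4 on adult array 1 only. The 7 fibroblast markers were well above background on all 4 arrays, with sums of 404 and 402 in adult and 771 and 445 in embryonic spheres, and 4 of them were lower in adult spheres without overlap and 1 higher. These counts and those of the lists that follow stand beside the same 61.5% and 22.6% of tested genes. The marker lists were not filtered for background. The 7 macrophage markers summed to 74.99 and 105 in adult and 106 and 104 in embryonic spheres, with the pan-leukocyte gene Ptprc above background on adult array 1 only. Itgam made up 85.6% and 88.1% of that sum in adult and 70.3% and 78.0% in embryonic spheres, while Lyz2, Cd68, Csf1r and Adgre1 were lower in adult spheres without overlap (Lyz2 0.59 and 1.02 in adult, 3.59 and 2.64 in embryonic spheres). Ptprc was higher in adult spheres without overlap (-1.59 and -2.61 in adult, -3.47 and -3.63 in embryonic spheres), and Itgam and Cd14 overlapped. Markers that passed background on both arrays of a group numbered 4 of 6 in adult and 3 of 6 in embryonic spheres for the T lineage, 4 of 5 in adult and 1 of 5 in embryonic spheres for endothelium, 5 of 5 in adult and 3 of 5 in embryonic spheres for adipocytes, 2 of 4 in adult and 0 of 4 in embryonic spheres for hepatocytes, and 0 of 6 in both for erythroid cells. The sums over these lists were 7.04 and 7.07 in adult against 9.70 and 11.5 in embryonic spheres for the T lineage. They were 32.7 and 32.1 in adult against 85.5 and 38.8 in embryonic spheres for adipocytes. For these 2 lists more markers passed background in adult spheres while the sums were lower. Without overlap, the T lineage had 3 markers lower in adult spheres and 1 higher, and adipocytes 3 lower and 2 higher. The endothelial sums overlapped, at 15.7 and 18.3 in adult and 15.9 and 25.8 in embryonic spheres. Kdr made up 69.1% and 81.1% of them in adult and 97.0% and 98.1% in embryonic spheres. Of the 5 endothelial markers, 4 were higher in adult spheres without overlap and 1 lower. For hepatocytes the sums were 1.22 and 1.75 in adult against 4.24 and 0.331 in embryonic spheres, and for erythroid cells 1.11 and 0.600 in adult against 0.577 and 0.801 in embryonic spheres. The part of these cell types in the results was not tested. In whole spheres, fewer cells of a type and less RNA per cell cannot be told apart.

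Of the 58 genes, 52 were tested, and 47 of them were well above background on all 4 arrays. The other 6 had no probe past background in a whole group: Gpx5, Gpx6, Gstm6, Gstm7, Gstp3 and Gstt4. Differences are adult minus embryonic, on the log2 scale of signal over each array's 75th percentile. In adult spheres 13 of the 52 fell (25.0%) and 1 rose (1.92%) at an adjusted p under 0.05 (limma, Benjamini-Hochberg). Of all 13667 genes tested, 36.1% fell and 17.5% rose, 53.6% in all. The median difference was -0.70 over the antioxidant and glutathione genes and -0.79 over all genes tested, and 30 of the 52 lay above that all-gene median. The median of the 52 was positive after quantile normalization (0.062) and in the deposited value table (0.041), where the median of all genes was -0.31 and -0.29. The groups did not overlap for 28 genes with lower values in adult spheres (53.8%) and 4 with higher ones (7.69%), against 61.5% and 22.6% of 13405 genes with a value on all 4 arrays. No gene of the array, and so none of the 52, was called by limma once either adult array was left out. The median of the 52 was then -0.83 without adult array 1 and -0.48 without adult array 2, beside -0.90 and -0.67 over all genes.

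**Figure D1:**
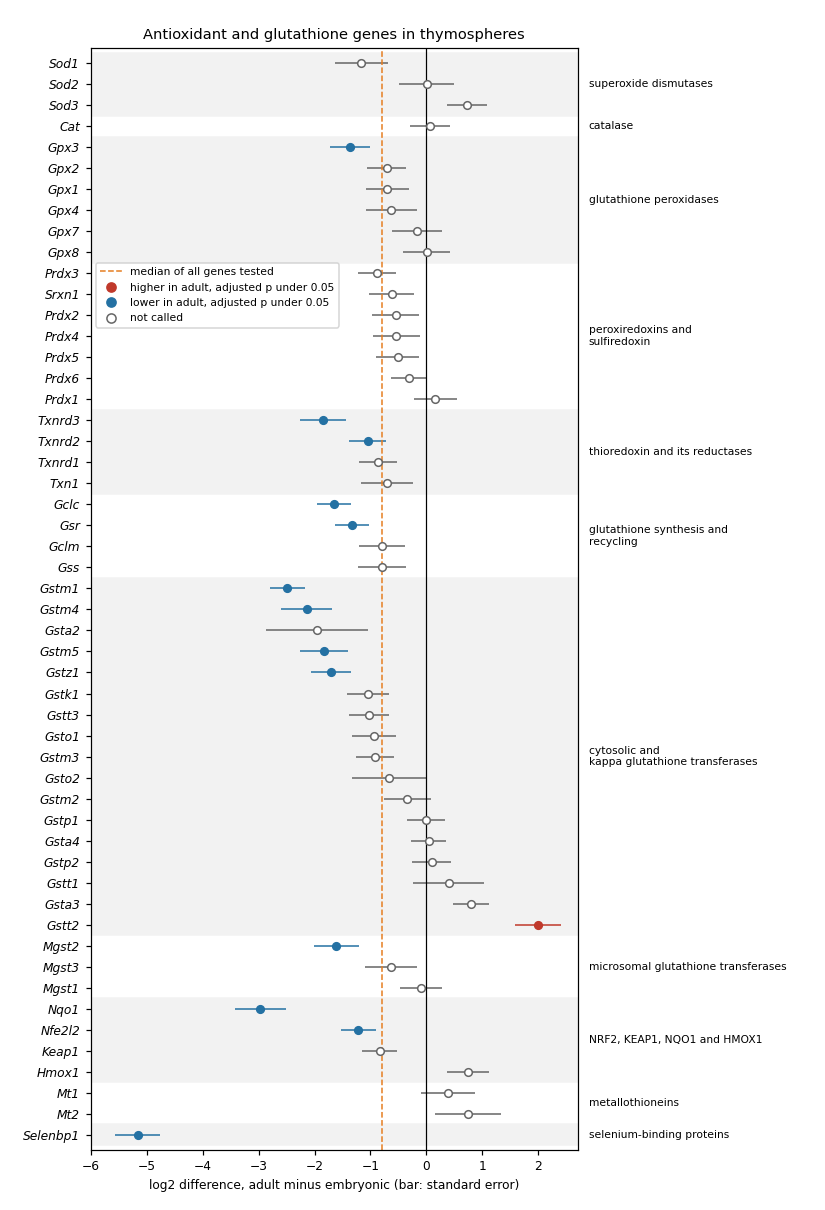
Log2 difference of each of the 52 tested genes, adult minus embryonic (horizontal axis), grouped by role; points are estimates, bars are standard errors, and the dashed line is the median of all genes tested (-0.79). Filled points passed an adjusted p of 0.05: 13 lie left of 0 and 1, Gstt2, lies right of it.

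The NRF2 axis itself held the next to lowest difference of the set. Nqo1, a quinone reductase and a common readout of NRF2, had log2 signals of -1.53 and -1.97 on the adult arrays, against 0.70 and 1.73 on the embryonic arrays. It fell by 2.97 (standard error 0.45, adjusted p = 0.00933), a level 7.83-fold lower in adult spheres. Nfe2l2, the gene of NRF2, had 2.52 and 2.40 in adult and 3.53 and 3.82 in embryonic spheres, and fell by 1.22 (standard error 0.31, adjusted p = 0.0250). For both genes every adult array lay below every embryonic one.

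Keap1, the gene of the NRF2 inhibitor, had 0.64 and 0.84 in adult and 1.67 and 1.48 in embryonic spheres, without overlap, and did not pass the test (difference -0.83, 95% interval -1.61 to -0.06, adjusted p = 0.0654). Hmox1 breaks down haem and answers to NRF2 as well as to its repressor BACH1. Its log2 signals ran the other way, at 4.16 and 4.36 in adult and 3.14 and 3.90 in embryonic spheres. The difference of 0.74 did not pass (95% interval -0.21 to 1.69, adjusted p = 0.141), and its sign turned when arrays were centred on the median of all probes (-0.44). Hmox1 was called higher in adult spheres in 4 of the 11 alternatives that kept the 4 arrays: with normexp background correction (0.87, adjusted p = 0.0447), quantile normalization (1.55, adjusted p = 0.0331), centring on the tested genes (1.40, adjusted p = 0.0479) and in the deposited value table (1.56, adjusted p = 0.00673). Among these 4 genes, 2 fell (50%, beside 36.1% of all genes) and 2 did not pass.

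Of the 4 genes that make and recycle glutathione, 2 fell (50%, beside 36.1% of all genes). Gclc encodes the catalytic subunit of glutamate-cysteine ligase, the rate-limiting enzyme of glutathione synthesis. Its log2 signals were 1.69 and 1.77 in adult and 3.27 and 3.48 in embryonic spheres, 2 tight pairs that lay far apart, and it fell by 1.65 (standard error 0.31, adjusted p = 0.0126). Gsr, the reductase that restores glutathione from its oxidised form, had 1.62 and 1.48 in adult and 2.87 and 2.88 in embryonic spheres and fell by 1.33 (standard error 0.30, adjusted p = 0.0186). Gclm, the modifier subunit of the ligase, was well above background on 1 of 2 adult arrays, at -1.20 and -2.09 in adult and -0.71 and -1.0 in embryonic spheres, and did not pass (difference -0.79, 95% interval -1.82 to 0.23, adjusted p = 0.145). Gss, the synthase of the final step, differed by -0.79 and did not pass either.

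The cytosolic and kappa glutathione transferases were the widest class, with 21 genes on the array and 17 tested. Of these 4 fell (23.5%) and 1 rose (5.88%), beside 36.1% and 17.5% of all genes. Differences ran between -2.48 and 2.00. The mu genes Gstm1, Gstm4 and Gstm5 fell. Gstm1 had log2 signals of 1.76 and 1.57 in adult and 4.26 and 4.04 in embryonic spheres and fell by 2.48 (standard error 0.31, adjusted p = 0.00757), which is a 5.59-fold lower level. Gstm4 had -0.65 and -1.66 in adult and 1.25 and 0.72 in embryonic spheres and fell by 2.14 (standard error 0.45, adjusted p = 0.0159). Gstm5 had 1.25 and 0.42 in adult and 2.97 and 2.36 in embryonic spheres and fell by 1.83 (standard error 0.43, adjusted p = 0.0200). No adult value of these 3 genes reached an embryonic one.

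The mu genes stand in 1 block on chromosome 3, in the order Gstm5, Gstm7, Gstm6, Gstm3, Gstm2, Gstm1 and Gstm4 in the annotation. Gstm2, which lies next to Gstm1, differed by only -0.34 (95% interval -1.37 to 0.69), with 4.25 and 3.93 in adult and 4.87 and 3.99 in embryonic spheres. Gstm3 differed by -0.93 and did not pass (adjusted p = 0.0639). Whether the differences of neighbours differ from each other was not tested. Mu transferases are close copies, and how far their probes cross-hybridise was not tested.

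Gstz1, which isomerises maleylacetoacetate in tyrosine breakdown, had 0.23 and -0.39 in adult and 1.68 and 1.58 in embryonic spheres and fell by 1.70 (standard error 0.35, adjusted p = 0.0152). Gstt2, a theta transferase, was the 1 gene of the set that rose. Its log2 signals were 0.44 and -0.28 in adult and -1.61 and -2.22 in embryonic spheres, a rise of 2.00 (standard error 0.41, adjusted p = 0.0151), with 1 of 2 embryonic arrays well above background. With normexp the difference was 0.82 and did not pass (adjusted p = 0.0595). The other theta genes stand beside it on chromosome 10, where Gstt3 differed by -1.02 and Gstt1 by 0.40, neither past the test.

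At this scaling the pi genes differed little and did not pass. Over the 11 alternatives with all arrays Gstp1 ran between -1.19 (centring on all probes, called lower) and 0.81 (quantile normalization, not called). In the deposited value table Gstp2 was called higher in adult spheres. Gstp1 had 4.80 and 4.52 in adult and 4.93 and 4.41 in embryonic spheres, a difference of -0.01 (95% interval -0.88 to 0.86, adjusted p = 0.986), and Gstp2 differed by 0.10 (95% interval -0.78 to 0.97). Gsta3, an alpha transferase, had 3.1 and 3.23 in adult and 2.56 and 2.19 in embryonic spheres and did not pass (difference 0.79, 95% interval -0.01 to 1.59, adjusted p = 0.0820), though it was called higher in 5 of the 11 alternatives with all arrays. Gsta2 spread most, with -0.97 and -3.03 in adult and -1.05 and 0.97 in embryonic spheres (standard error 0.92). The remaining tested transferases, Gsta4, Gstk1, Gsto1 and Gsto2, differed by between -1.05 and 0.04 and did not pass.

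Among the 3 microsomal transferases, membrane proteins that also act on lipid peroxides and leukotrienes, Mgst2 fell (33.3%, beside 36.1% of all genes). It had 0.21 and -0.13 in adult and 2.06 and 1.24 in embryonic spheres, and it fell by 1.61 (standard error 0.40, adjusted p = 0.0231). Mgst1 differed by -0.10 and Mgst3 by -0.63, and neither passed.

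Of 8 glutathione peroxidase genes 6 were tested, and Gpx3, the secreted peroxidase of plasma and extracellular fluid, fell (1 of 6, 16.7%, beside 36.1% of all genes). Its log2 signals were 3.36 and 2.85 in adult and 4.64 and 4.29 in embryonic spheres, and it fell by 1.37 (standard error 0.35, adjusted p = 0.0250). Gpx1, the general cytosolic peroxidase, had 5.71 and 5.34 in adult and 6.57 and 5.88 in embryonic spheres and did not pass (difference -0.70, 95% interval -1.65 to 0.25, adjusted p = 0.160). Gpx4, which reduces lipid peroxides in membranes and restrains ferroptosis, overlapped between the groups, with 6.12 and 5.76 in adult and 7.12 and 6.01 in embryonic spheres (difference -0.63, adjusted p = 0.276). Gpx2, Gpx7 and Gpx8 differed by between -0.71 and 0.01 and did not pass.

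No superoxide dismutase and no peroxiredoxin passed the test (limma, 0 of 3 and 0 of 7 with Srxn1), beside 53.6% of all genes. At an unadjusted p under 0.05 there was 1 gene, Prdx3, beside 8596 of all 13667 genes. Sod1, the copper-zinc enzyme of the cytosol, had 5.02 and 4.72 in adult and 6.62 and 5.45 in embryonic spheres (difference -1.16, 95% interval -2.34 to 0.01, adjusted p = 0.0815). Sod2, the manganese enzyme of mitochondria, had 5.56 and 5.08 in adult and 5.91 and 4.72 in embryonic spheres, a difference of 0.00 (95% interval -1.22 to 1.22, adjusted p = 0.998). For Sod2 the embryonic arrays lay on either side of both adult arrays. Sod3, the secreted enzyme, had 2.85 and 2.23 in adult and 1.93 and 1.71 in embryonic spheres (difference 0.73, 95% interval -0.17 to 1.62, adjusted p = 0.130), and was called higher in 3 of the 11 alternatives with all arrays.

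Cat, the catalase of peroxisomes, had log2 signals of 2.73 and 3.34 in adult and 2.84 and 3.1 in embryonic spheres, so that the embryonic pair lay inside the adult range. The difference was 0.07 (95% interval -0.83 to 0.96, adjusted p = 0.880). Peroxiredoxins and Srxn1, which repairs overoxidised peroxiredoxins, differed by between -0.88 for Prdx3 and 0.16 for Prdx1. Prdx1 had 5.82 and 5.46 in adult and 5.81 and 5.14 in embryonic spheres (95% interval -0.78 to 1.10, adjusted p = 0.722).

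Of the 4 thioredoxin genes tested, 2 fell (50%, beside 36.1% of all genes), both of them among the 3 reductases. Txnrd3, known best from the testis, had -1.21 and -2.01 in adult and -0.02 and 0.50 in embryonic spheres and fell by 1.85 (standard error 0.41, adjusted p = 0.0180). Txnrd2, the reductase of mitochondria, had 0.54 and 0.16 in adult and 1.27 and 1.53 in embryonic spheres and fell by 1.05 (standard error 0.33, adjusted p = 0.0421). Txnrd1, the cytosolic reductase and an NRF2 target, had 2.80 and 2.99 in adult and 3.53 and 4.0 in embryonic spheres, without overlap, and did not pass (difference -0.87, 95% interval -1.70 to -0.03, adjusted p = 0.0720). Txn1, cytosolic thioredoxin itself, had 5.42 and 5.12 in adult and 6.53 and 5.41 in embryonic spheres (difference -0.71, 95% interval -1.85 to 0.44, adjusted p = 0.226).

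For the metallothioneins the 2 embryonic arrays disagreed. Mt1 had log2 signals of 10.13 and 10.23 in adult and 10.43 and 9.15 in embryonic spheres, and Mt2 had 10.10 and 10.09 in adult and 10.20 and 8.51 in embryonic spheres. Embryonic array 1 lay above both adult arrays and embryonic array 2 below them for both genes, and neither passed (Mt1 difference 0.39, 95% interval -0.83 to 1.61, adjusted p = 0.512; Mt2 difference 0.74, 95% interval -0.74 to 2.21, adjusted p = 0.312). Without embryonic array 1 Mt2 was called higher in adult spheres (1.59), and without embryonic array 2 the differences were -0.25 for Mt1 and -0.11 for Mt2. The 2 genes are neighbours on chromosome 8 and code for closely similar proteins.

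Selenbp1 had the lowest difference of the set. It encodes a selenium-binding protein that acts as a methanethiol oxidase in humans. Its log2 signals were -0.46 and -1.08 in adult and 4.08 and 4.70 in embryonic spheres, and it fell by 5.16 (standard error 0.40, 95% interval -6.16 to -4.17, adjusted p = 0.00727). That is a level 35.8-fold lower in adult spheres, and the gap between the groups was several times the spread within either. Its close copy Selenbp2, also on chromosome 3, was not analysed here, and whether the Selenbp1 probe also reads it was not tested.

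**Figure D2:**
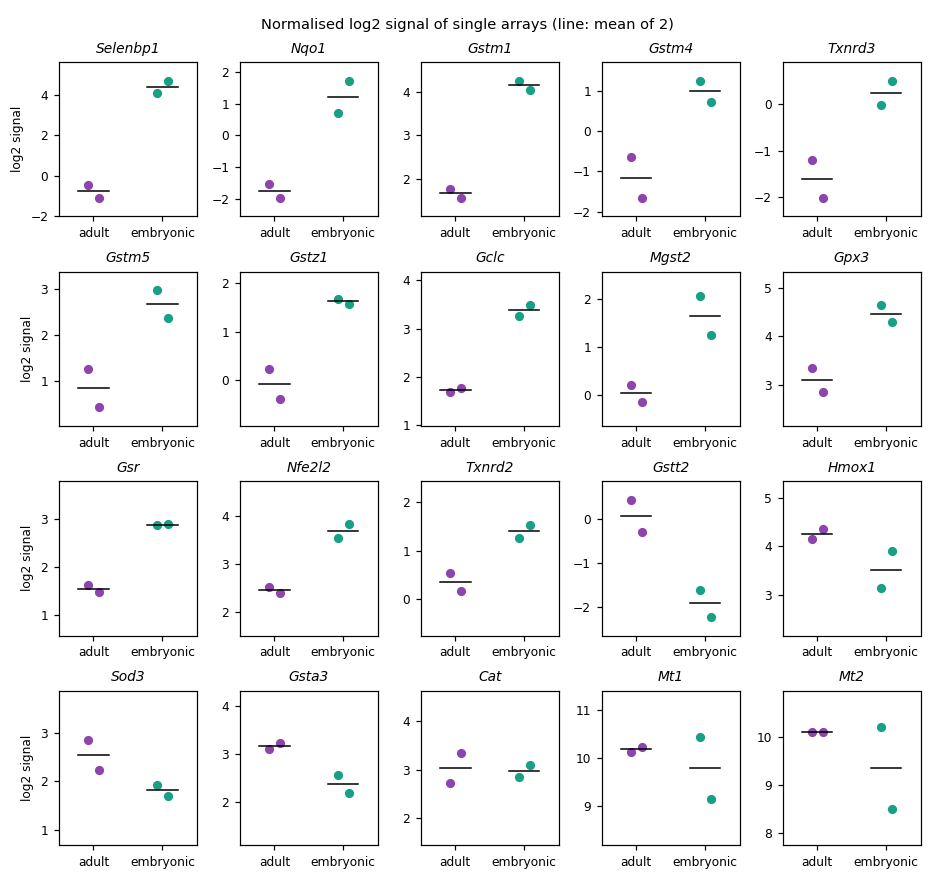
Normalised log2 signal (vertical axis, 0 at the array's 75th percentile) of single arrays for the 14 called genes and for Hmox1, Sod3, Gsta3, Cat, Mt1 and Mt2, adult left and embryonic right; the line is the mean of 2 arrays. The vertical ranges differ between panels. Selenbp1 stands at -0.46 and -1.08 in adult and 4.08 and 4.70 in embryonic spheres, and the embryonic values of Mt2, 10.20 and 8.51, lie on either side of the adult ones.

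Probes of the same gene gave a check on single values. Of 68 tested probes, 14 were called lower (23.7% of all 27049 tested probes were) and 1 higher (25.1% of all were, 48.8% in both directions), with p adjusted over probes. Both Gstm1 probes fell, by 2.48 and 2.36. For Gstm4 the probe that stands for the gene fell by 2.14, and the other, well above background on 1 of 2 adult arrays, differed by -1.43 and did not pass (adjusted p = 0.0593). For Gsr the second probe differed by -0.73 and did not pass (adjusted p = 0.163). Mgst3 went the other way round: the probe that stands for the gene did not pass (-0.63), while its second probe fell by 1.69 (adjusted p = 0.0273).

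Mt1 probes differed in sign, 0.39 for the gene's RefSeq transcript and -0.80 for a predicted transcript, neither past the test. In the other 9 genes with more than 1 tested probe (Cat, Gsta3, Gstm2, Gstp1, Gstp2, Hmox1, Mgst1, Prdx1 and Prdx6), every tested probe had the sign of the probe that stands for the gene, and none passed.

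**Figure D3:**
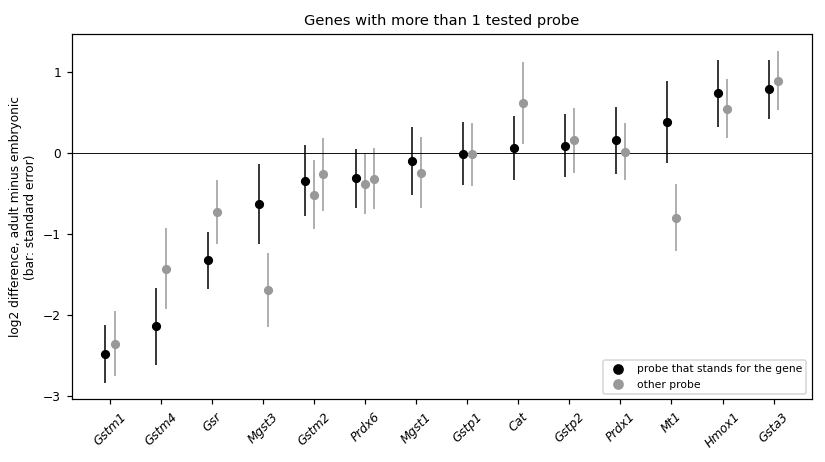
Log2 difference, adult minus embryonic (vertical axis), of every tested probe for the 14 genes with more than 1 tested probe; bars are standard errors, black marks the probe that stands for the gene. The 2 Gstm1 probes lie at -2.48 and -2.36, and the 2 Mgst3 probes at -0.63 and -1.69.

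At this scaling the median over all genes lay below 0 (-0.79), and the calls were set against that shift. After centring every array on its median over tested genes, the median of all genes was -0.14 and that of the antioxidant and glutathione genes -0.046. Then 3 genes were called lower, Selenbp1 (-4.51, adjusted p = 0.00599), Gstm1 (-1.83, adjusted p = 0.0105) and Nqo1 (-2.31, adjusted p = 0.0172), which is 5.77% of the 52 beside 7.65% of all genes. Called higher were 4, Gstt2 (2.66, adjusted p = 0.00914), Gsta3 (1.45, adjusted p = 0.0266), Sod3 (1.38, adjusted p = 0.0322) and Hmox1 (1.40, adjusted p = 0.0479), which is 7.69% beside 20.3% of all genes. Gclc (-0.99, adjusted p = 0.0590), Gstm4 (-1.48, adjusted p = 0.0557) and Nfe2l2 (-0.56, adjusted p = 0.199) did not pass there. The values of Gsta3 and Sod3 are named here after they were seen.

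All 14 called genes kept their sign in every alternative in which they were measured. Selenbp1, Nqo1 and Gstm1 were called lower in all 11 alternatives that kept the 4 arrays, Gstm4 and Gstz1 in 9, Gclc, Gstm5 and Txnrd3 in 8, Gpx3 and Mgst2 in 7, Gsr and Nfe2l2 in 6 and Txnrd2 in 5. Gstt2 was called higher in 7 of the 10 in which it was tested. Over these alternatives the Selenbp1 difference ran between -6.35 and -4.08, the Nqo1 difference between -4.15 and -1.45, and the Gstm1 difference between -3.67 and -1.51.

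**Figure D4:**
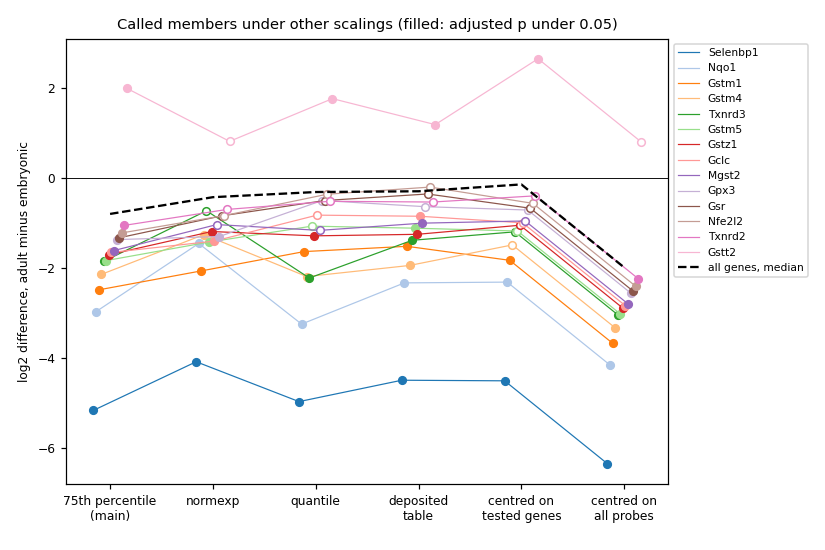
Log2 difference, adult minus embryonic (vertical axis), of the 14 called genes under 6 scalings (horizontal axis), 1 line a gene; filled points passed an adjusted p of 0.05 and the dashed line is the median of all genes tested. Selenbp1, Nqo1 and Gstm1 stay filled throughout, and Gstt2 is the 1 line above 0, at 2.00 as scaled here and 0.81 with arrays centred on all probes.

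Genes of the same pathways outside the names above were listed as redox partners, also with earlier results of these data known, 96 on the array and 88 tested. In adult spheres 34 fell (38.6%, beside 36.1% of all genes) and none rose by limma (17.5% of all genes did). At an unadjusted p under 0.05 in the same fit, 3 were higher and 38 lower. That is 41 of the 88, beside 8596 of all 13667 genes. Their median difference was -0.82, beside -0.79 over all genes. With arrays centred on the tested genes, 7 were called lower (7.95%, beside 7.65% of all genes) and 3 higher (3.41%, beside 20.3% of all genes).

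NADPH is the electron source of the glutathione and thioredoxin reductases. Of the 7 genes listed for NADPH supply or the pentose phosphate pathway, 6 fell (85.7%, beside 36.1% of all genes). Idh2, the mitochondrial NADP-dependent isocitrate dehydrogenase, had 2.07 and 2.04 in adult and 4.49 and 4.51 in embryonic spheres, and it fell by 2.44 (standard error 0.30, adjusted p = 0.00748). Malic enzyme Me1 fell by 1.81, and the pentose phosphate genes Taldo1, Tkt, Pgd and G6pdx fell by 1.53, 1.19, 1.07 and 1.05. These 5 are named after their values were seen, and under centring on the tested genes Idh2 was the only 1 of the 7 that was called.

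In the list of NRF2 partners and other NRF2 targets, 11 of 23 tested genes fell (47.8%, beside 36.1% of all genes). Activating and repressing partners were among them: the small MAF partners Mafg (-1.64) and Mafk (-1.52), the repressor Bach1 (-1.58) and Cul3 (-1.59), the ligase through which KEAP1 acts. These were chosen after their values were seen, and none passed under centring on the tested genes.

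Glutathione turnover had 6 of 17 tested genes lower (35.3%, beside 36.1% of all genes). Oplah, which returns 5-oxoproline to glutamate, had -0.89 and -1.46 in adult and 1.08 and 1.53 in embryonic spheres and fell by 2.48 (standard error 0.37, adjusted p = 0.00911). Ggt5, which cleaves glutathione conjugates outside the cell, had -2.06 and -3.02 in adult, with 1 of 2 arrays well above background, and 0.17 and -0.56 in embryonic spheres, and it fell by 2.35 (standard error 0.47, adjusted p = 0.0142). The Ggt5 call was lost with normexp (-0.77, adjusted p = 0.0620) and with no filter on dim probes (adjusted p = 0.0526). No adult value of Oplah or Ggt5 reached an embryonic one. Chac1, which degrades glutathione inside the cell, had 1.63 and 0.79 in adult and 3.35 and 3.73 in embryonic spheres and fell by 2.33 (standard error 0.41, adjusted p = 0.0114). Slc7a11, the cystine transporter that feeds glutathione synthesis, was chosen after its value was seen and did not pass (difference -0.36, 95% interval -1.73 to 1.01).

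Slc40a1, the iron exporter ferroportin, had the lowest difference of the partner list at this scaling. It had log2 signals of -2.02 and -3.30 in adult, well above background on 1 of 2 arrays, and 1.83 and 1.42 in embryonic spheres, and it fell by 4.28 (standard error 0.50, adjusted p = 0.00740). With normexp the difference was -2.02 (adjusted p = 0.0135), and over the 10 alternatives with all arrays that tested it, all of which called it lower, it ran between -5.47 and -2.02. It was the only 1 of 7 tested genes of haem and iron handling that was called (14.3%, beside 53.6% of all genes). Among glutaredoxins and other thioredoxin genes 6 of 13 fell (46.2%, beside 36.1% of all genes), among them Txnip, the thioredoxin inhibitor, by 1.94 (chosen after its value was seen). Methionine sulfoxide reductases and selenoproteins had 2 of 13 lower (15.4%), and metal handling 2 of 8 (25.0%), beside the same 36.1%.

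**Figure D5:**
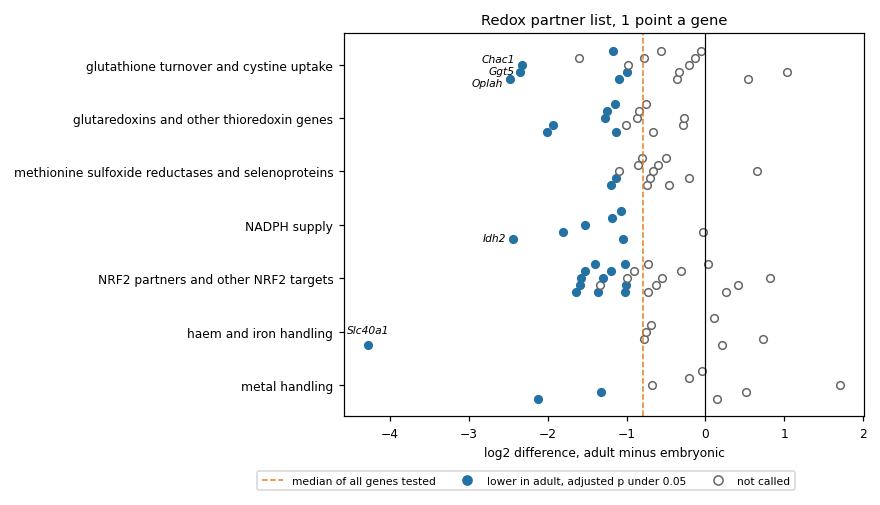
Log2 difference, adult minus embryonic (horizontal axis), of the 88 tested redox partner genes by group, 1 point a gene, spread vertically for sight only; filled points passed an adjusted p of 0.05 and the dashed line is the median of all genes tested (-0.79). All 34 filled points lie left of 0, and Slc40a1 lies farthest left at -4.28.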

How the data were processed

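The deposited scanner files hold spot intensity values that, per the file headers, came from Agilent Feature Extraction 10.7.3.1 as background-subtracted processed signals, not scaled between arrays. The deposited value table gives linear intensity, with medians of 34.4 and 35.0 for adult and 35.7 and 35.1 for embryonic samples. Its log2 values correlated best with the same array's scanner values (0.946 to 0.980, across probes), and its method and centring are not given in the sources used here, so it served only as an alternative. All 4 arrays lay on 1 slide and no spot was saturated.

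From each log2 processed signal the log2 of its array's 75th percentile was subtracted (132 and 66.0 for adult, 126 and 61.5 for embryonic samples). Control and outlier spots were left out and spots of a probe were averaged. Through RefSeq accessions, 28026 of 55681 probes (50.3%) were named from the annotation GRCm38.p6, none with several genes. A probe was tested if well above background on both arrays of a group, and 1 probe stood for a gene: measured on all 4 arrays first, then the brightest. Adult minus embryonic was fitted without covariates with limma 3.58.1 (lmFit and eBayes, R 4.3.3), with Benjamini-Hochberg adjustment over 13667 genes. The fit was tested on simulated data in which a small set of genes was changed, as many up as down. That simulation held no shift over all genes like the one seen here, so it does not bear on the choice of scaling.

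Members and lists were chosen with earlier results of these data known. Named by rule were the called genes, 19 fixed genes and up to 5 called redox partners per direction, and genes named after their values were seen are marked so in the text. As alternatives, arrays were centred on tested genes or on all probes, quantile-normalized or corrected with normexp (offset 50), the deposited table was used, filters on dim probes were changed, probes of a gene were averaged, and the fit was given an intensity trend or a replicate block; the others were leaving out each array and, chosen after seeing the data, keeping outlier spots. Normexp used the median spot signal in place of the planned mean signal, which is not in the files used here. Promoters are RefSeq's for GRCm38.p6, and the files' own array design is older, so no other coordinates are given.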

Additional observations from a re-analysis of the deposited data

How the results depend on the processing

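The 13 genes called lower became 8 with normexp, 7 with quantile normalization, 3 with centring on the tested genes, 42 with centring on all probes, 3 with no filter on dim probes, 21 with a filter on all 4 arrays and 21 with an intensity trend; the 1 called higher became 4 with quantile normalization, 4 with centring on the tested genes, 0 with centring on all probes, 6 in the deposited table, 0 with no filter, 2 with an intensity trend and 2 (Gstm6 added) with outlier spots kept. Of all genes, 18.5% were lower and 6.0% higher with normexp, 21.2% and 14.4% with quantile normalization, and 26.5% and 13.9% in the deposited table. The shares were 7.65% and 20.3% with centring on the tested genes, and 71.9% and 12.4% with centring on all probes. They were 4.05% and 7.98% with no filter, 56.0% and 3.42% with a filter on all 4 arrays, and 44.9% and 17.3% with an intensity trend. With outlier spots kept they were 32.8% and 21.3%. The 1 gene called higher was another one with normexp (Hmox1, with Gstt2 lost) and with a filter on all 4 arrays (Gsta3, with Gstt2 untested). The median of -0.70 became -0.44 with normexp, 0.062 with quantile normalization, -0.046 with centring on the tested genes, -1.89 with centring on all probes and 0.041 in the deposited table. Of the redox partners, 34 lower became 16 with normexp, 16 with quantile normalization, 7 with centring on the tested genes, 75 with centring on all probes, 19 in the deposited table and 7 with no filter, and 0 higher became 1 with normexp, 5 with quantile normalization, 3 with centring on the tested genes, 10 in the deposited table, 2 with a filter on all 4 arrays and 3 with an intensity trend. The partner counts stand beside the same shares of all genes. Leaving out 1 array gave 0 to 15 genes lower, 0 to 3 higher, a median of -0.92 to -0.48, and 0 to 31 partners lower and 0 to 4 higher; the zeros in both directions came without either adult array, where the count over all genes was 0 too (unadjusted p under 0.05: 6471 and 5530 genes), and the lone adult sample is then assumed to vary like the embryonic pair. Among all called genes, 2393 were higher and 4939 lower, against 2778 and 1046 with centring on the tested genes, 1695 and 9831 with centring on all probes, 1687 and 857 with no filter, and 329 and 5393 with a filter on all 4 arrays; the median of all genes was -0.42 with normexp and -1.98 with centring on all probes. Of the 52 genes, 13 turned positive with quantile normalization, 14 in the deposited table, 11 with centring on the tested genes and 1 (Gsto2) with normexp, and 12 turned negative with centring on all probes and 1 with the mean of the probes; none of them was called as reported. Among those described with their values, signs turned with centring on all probes for Cat (-1.12), Gsta3 (-0.40), Hmox1 (-0.44), Mt1 (-0.80), Mt2 (-0.45), Prdx1 (-1.02), Sod2 (-1.18) and Sod3 (-0.46); with quantile normalization for Gpx1 (0.14), Gpx4 (0.25), Gstp1 (0.81) and Txn1 (0.17); in the deposited table for Gpx1 (0.19), Gpx4 (0.26), Gstp1 (0.68) and Txn1 (0.33); with centring on the tested genes for Gpx4 (0.031), Gstp1 (0.65) and the partner Slc7a11 (0.30), beside Gpx7, Gstm2, Mgst1, Mgst3, Prdx2, Prdx4, Prdx5, Prdx6 and Srxn1; and with the mean of the probes for Mt1 (-0.21). Leaving out 1 array gave -0.24 to 0.37 for Cat, -0.27 to 0.25 for Gstp1, -0.25 to 1.03 for Mt1, -0.11 to 1.59 for Mt2, -0.17 to 0.50 for Prdx1, -1.01 to 0.29 for Slc7a11 and -0.59 to 0.60 for Sod2. The cause of these moves was not tested. By their titles, samples of the same number share only that number. The correlation of deviations over the 2 pairs was 0.07, which cannot show that nothing else was shared. With the replicate block 1 gene was higher and 12 lower, Txnrd2 being lost, and 26 partners were lower. Of all genes, 17.7% were higher and 33.9% lower with that block. With 2 arrays a group, signals near background limit Gclm, Gsta2, Gsto2, Gstt1 and Gstt2 most.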
